A study of Mus musculus with 9 samples.

Results

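Levels of 8 transcription factor genes that place T cells along the central, follicular and effector states were followed in mouse regulatory T cells (Tregs) given an engineered interleukin-2, natural-sequence interleukin-2 or no cytokine. The genes were Bcl6, Prdm1 (which encodes Blimp1), Tcf7 (which encodes TCF1), Lef1, Id2, Id3, Satb1 and Bach2. They were taken by symbol, with 1 transcript for each, and all 8 were found among the 23992 gene symbols of the tables and among the 10702 genes expressed highly enough to test. The Tregs came from the spleens of BALB/c mice, were marked by a Foxp3 reporter (GFP), and in all 3 groups carried, by transduction, an engineered (orthogonal) beta chain of the IL-2 receptor with a human EGFR tag. Bead activation through CD3 and CD28 with 1000 IU/mL human IL-2 for 48 hours, magnetic isolation by the tag and a night without IL-2 were also shared by all groups. The ortho IL-2 group then received 2000000 IU/mL of ortho IL-2, an engineered cytokine meant for the engineered receptor, and the WT IL-2 group 20000 IU/mL of WT IL-2. Control cells, the no IL-2 group, had no cytokine in these 4 hours. Doses were not matched: in IU/mL, cells received 100 times as much ortho IL-2 as WT IL-2. Each group has 3 libraries, and the labels do not say that these came from separate cultures or animals. The p-values therefore measure only the spread between libraries, which may be technical.

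Most of these factors act as repressors or gatekeepers of T cell fate. Bcl6 and Blimp1 are transcriptional repressors that oppose each other, Bcl6 favouring follicular and memory states and Blimp1 favouring effector differentiation, and in conventional T cells IL-2 acting through STAT5 is known to lower Bcl6 and raise Blimp1. TCF1 and LEF1 are related HMG-box factors that maintain naive and memory-like T cells and can act upstream of Bcl6. ID2 and ID3 lack a DNA-binding region and hold E proteins away from DNA, and in T cells ID2 is associated with effector cells and ID3 with memory precursors and with Treg maintenance. SATB1 organises chromatin loops in developing T cells and takes part in setting up the Treg programme, while BACH2 restrains effector genes and keeps Tregs in a resting state.

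Reads in genes numbered between 16581624 and 58182835 in a library, so that the least covered of the 8 genes in any library, Id3 in no IL-2 replicate 3, still had 253 reads. Reads outside the chosen transcripts made up 29.4 ± 3.64% of the total in the ortho IL-2 group, 31.7 ± 2.96% in the WT IL-2 group and 40.5 ± 2.43% without IL-2 (SD, n = 3 each). The libraries carried the markers of Tregs. All 8 genes of a list of CD4 T cell and Treg markers, Foxp3 among them, exceeded an RPKM (reads per length of transcript and per library depth, here with TMM scaling between libraries) of 1 in every library, with sums of 2673 to 2724 RPKM with ortho IL-2, 2696 to 2764 RPKM with WT IL-2 and 2275 to 2296 RPKM without IL-2. Foxp3 and Il2ra were called higher, Ikzf2, Ctla4, Cd4, Cd3g and Cd28 lower and Cd3e in neither direction in both comparisons. Summed B and plasma cell markers reached 5.10 to 5.70 RPKM with ortho IL-2, 4.63 to 5.67 RPKM with WT IL-2 and 6.24 to 6.38 RPKM without IL-2. Of the 13 genes in that list, 1 to 2 exceeded an RPKM of 1 in a library; Cd79b lay at 1.48 to 2.31 RPKM (34 to 119 reads) and was not called in either comparison, and Ms4a1 did not exceed 0.415 RPKM. Summed myeloid markers reached 3.80 to 4.32 RPKM with ortho IL-2, 3.69 to 3.97 RPKM with WT IL-2 and 4.78 to 5.37 RPKM without IL-2, and summed CD8 and NK cell markers lay between 8.004 and 8.73 RPKM over all libraries. The myeloid marker Itgam was called lower (log2 fold changes -0.62 with ortho IL-2 and -0.60 with WT IL-2). Tnfrsf17 and Klra8, markers of plasma cells and NK cells, had 0 reads in every library. In bulk RNA, fewer cells of a type and less RNA per cell cannot be told apart.

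After ortho IL-2, 7 of the 8 genes passed the test against no IL-2, 2 higher and 5 lower (edgeR quasi-likelihood test, adjusted p under 0.05), in a comparison that called 56.0% of all genes tested (28.6% higher and 27.4% lower). After WT IL-2, 6 of the 8 passed, 1 higher and 5 lower, where 47.9% of all genes were called (24.9% higher and 23.0% lower). With shares this high, a call alone sets none of the 8 apart. Of the 8, 3 genes (Bcl6, Tcf7 and Id2) were called and changed at least 2-fold in each comparison, where 6.28% of all genes did so with ortho IL-2 and 4.68% with WT IL-2. In both comparisons the libraries of the groups did not overlap for 7 of the 8, against 66.1% of all genes with ortho IL-2 and 58.8% with WT IL-2. The median log2 fold change of the 8 was -0.22 with ortho IL-2 and -0.20 with WT IL-2, beside 0.012 and 0.0075 over all genes. The 2 comparisons share the no IL-2 libraries and are given side by side.

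**Figure D1:**
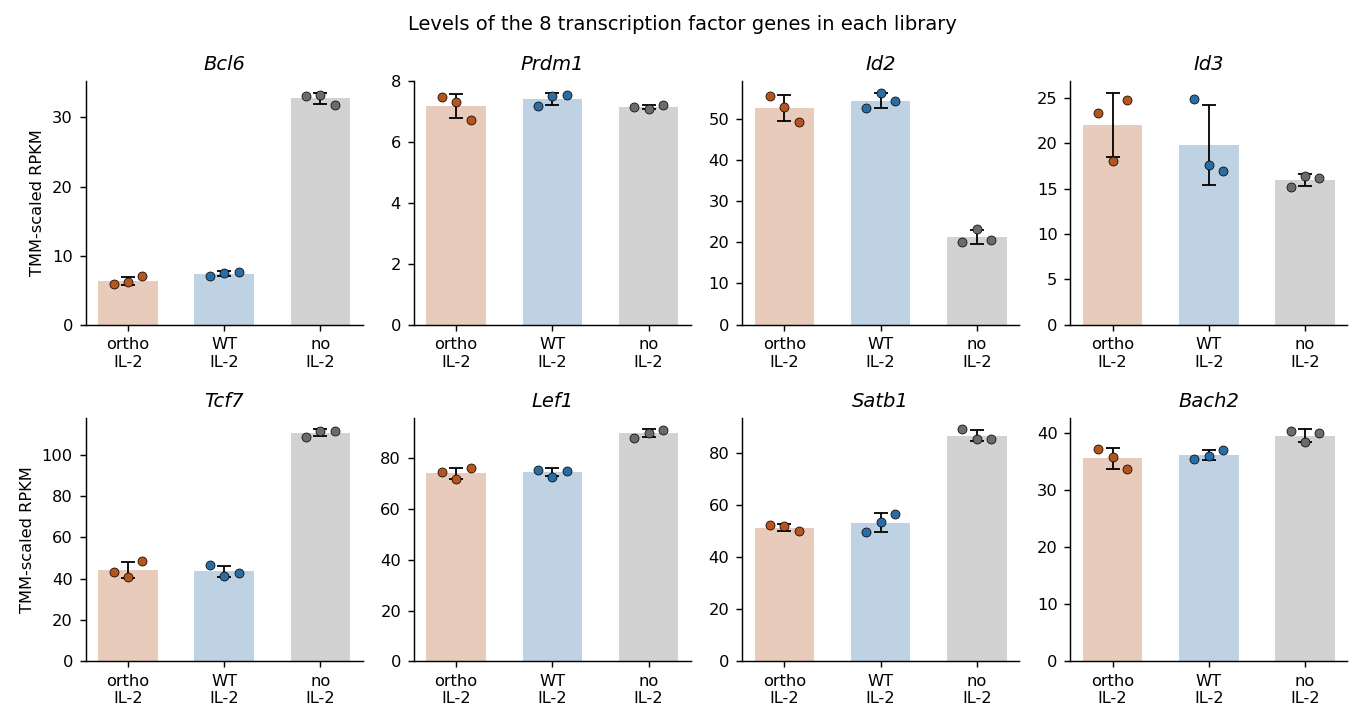
TMM-scaled RPKM of the 8 genes in each library (points), with group means (bars) and SD (error bars, n = 3), for ortho IL-2, WT IL-2 and no IL-2 from left to right; each panel has its own axis from 0. Bcl6, Tcf7 and Satb1 were lower and Id2 higher in every cytokine-treated library than in every no IL-2 library, and Prdm1 lay near 7 RPKM throughout.

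Bcl6 fell furthest of the 8. It lay at 5.92, 6.21 and 7.01 RPKM in the 3 ortho IL-2 libraries and at 7.01, 7.54 and 7.64 RPKM in the WT IL-2 libraries, against 33.2, 33.3 and 31.8 RPKM in the no IL-2 libraries. No cytokine-treated library came near a control library. The level was 5.12-fold lower with ortho IL-2 (log2 fold change -2.36, SE 0.07, adjusted p = 7.51e-09) and 4.43-fold lower with WT IL-2 (-2.15, SE 0.07, adjusted p = 1.32e-08, edgeR). Among the 10702 genes tested this was the 4th lowest log2 fold change with ortho IL-2 and the 2nd lowest with WT IL-2. The summed B cell and myeloid markers above were also higher without IL-2, and their part in the Bcl6 difference was not tested. With the share of reads outside the chosen transcripts as a covariate, the log2 fold changes were -2.50 with ortho IL-2 and -2.26 with WT IL-2. That share did not overlap between treated and control libraries, so this fit separates it poorly from treatment. The gene lies on the minus strand of chromosome 16 (GRCm38, 23965052 to 23988852), and its exons overlap those of a gene annotated on the opposite strand, Gm37419, whose reads could not be told apart because strand use is not stated.

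The stretches upstream of the RefSeq start sites of Bcl6 (GRCm38.p6) are shown because STAT5, the factor that IL-2 signalling activates, binds the letters TTCNNNGAA, which read the same on both strands. The first is the stretch before the annotated 5′ end of the gene, chr16:23988853-23989102, outside annotated exons, and the second the stretch before a RefSeq start inside the gene, chr16:23981284-23981533, in no annotated exon. Both are printed 5′ to 3′ on the minus strand, with matches to these letters in capitals.
Bcl6, upstream start: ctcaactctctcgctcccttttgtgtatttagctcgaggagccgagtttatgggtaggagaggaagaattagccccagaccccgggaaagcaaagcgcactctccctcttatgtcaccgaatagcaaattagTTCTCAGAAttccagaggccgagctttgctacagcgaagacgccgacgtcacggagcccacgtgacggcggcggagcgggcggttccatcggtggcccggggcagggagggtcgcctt
Bcl6, internal start: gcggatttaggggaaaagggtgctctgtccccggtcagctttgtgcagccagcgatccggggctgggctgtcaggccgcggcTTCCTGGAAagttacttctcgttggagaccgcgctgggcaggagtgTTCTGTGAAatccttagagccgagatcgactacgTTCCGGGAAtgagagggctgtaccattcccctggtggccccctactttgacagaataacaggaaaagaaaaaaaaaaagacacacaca
The first stretch holds 1 match, which begins 118 bases before the start site, and the second holds 3, which begin 168, 122 and 88 bases before it. In windows that run from 250 bases before to 50 after a start site, these letters occur in 8.30% of all 32851 RefSeq windows and for 9.55% of all genes, and 3 or more matches occur in 0.0335%. Of the 8 genes, 2 had a match (3 of their 17 windows): Bcl6, in both windows, and Bach2, with 1 match that begins 140 bases before its start. The counts do not show which Bcl6 start was used, and a match is a description of the letters, not of binding.

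Other motifs were searched in the same windows on both strands, and no 2 of their matches overlapped. The Blimp1 letters AGNGAAAG, present in 8.63% of all windows and for 9.91% of all genes, occurred among the 8 for Bach2, in 1 of the 17 windows. The TCF and LEF letters CTTTGAT, present in 3.73% of windows and for 4.29% of genes, occurred for 0 of the 8. The E protein letters CAGGTG occurred for 4 of the 8 genes and in 5 of the 17 windows, beside 22.6% of all genes and 20.2% of all windows. The AP-1 and BACH letters TGANTCA occurred for Prdm1, in 1 window, beside 8.97% of all genes and 7.81% of all windows.

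Prdm1, the partner of Bcl6 in mutual repression, was not called by the edgeR test with TMM scaling. Its level was 7.50, 7.32 and 6.73 RPKM with ortho IL-2 and 7.20, 7.53 and 7.55 RPKM with WT IL-2, against 7.14, 7.09 and 7.20 RPKM without IL-2. The ranges overlapped in both comparisons. The log2 fold change was 0.0063 with ortho IL-2 (95% interval -0.12 to 0.13, adjusted p = 0.932) and 0.055 with WT IL-2 (-0.07 to 0.18, adjusted p = 0.433, edgeR). On the scale of the deposited RPKM, which divides by all reads including those outside the chosen transcripts, Prdm1 was called higher, at log2 fold changes of 0.28 with ortho IL-2 and 0.27 with WT IL-2. That scale moved the median of all genes tested by 0.29 and 0.22 on the log2 scale, so relative to the median gene Prdm1 lay at -0.0091 and 0.048.

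The ratio of Bcl6 to Prdm1 within a library does not depend on how libraries are scaled. Per base of transcript, Bcl6 had 0.789, 0.848 and 1.04 times the reads of Prdm1 with ortho IL-2 and 0.974, 1.00 and 1.01 times with WT IL-2, against 4.64, 4.70 and 4.42 times without IL-2. The genes were thus at near-equal levels in cytokine-treated cells, while Bcl6 exceeded Prdm1 in every control library. The ratio was 5.17-fold lower with ortho IL-2 and 4.605-fold lower with WT IL-2. Each exact permutation test gave p = 0.1, the smallest that 3 libraries against 3 allow, and 0.15 after adjustment over 9 tests of 3 ratios.

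Id2 moved the other way. Its level was 55.6, 52.9 and 49.2 RPKM with ortho IL-2 and 52.6, 56.3 and 54.2 RPKM with WT IL-2, against 20.1, 23.2 and 20.6 RPKM without IL-2. Every cytokine-treated library was above every control. It rose 2.46-fold with ortho IL-2 (log2 fold change 1.30, SE 0.07, adjusted p = 3.05e-07) and 2.55-fold with WT IL-2 (1.35, SE 0.07, adjusted p = 2.29e-07, edgeR). The gene lies on chromosome 12 (GRCm38, 25093799 to 25097140, minus strand) and its exons overlap no other annotated gene.

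Id3, the other ID gene expressed here, varied most between libraries. It lay at 23.3, 18.1 and 24.8 RPKM with ortho IL-2 and at 24.9, 17.6 and 16.9 RPKM with WT IL-2, against 15.2, 16.4 and 16.2 RPKM without IL-2. The groups did not overlap, yet 1 of the 3 WT IL-2 libraries stood well above the other 2, and the coefficient of variation was 16.0% with ortho IL-2, 22.4% with WT IL-2 and 3.98% without IL-2. Id3 was called higher with ortho IL-2 (1.39-fold, log2 fold change 0.48, SE 0.16, adjusted p = 0.0282, edgeR), and its value with WT IL-2 was 0.32 (SE 0.16, adjusted p = 0.129), which did not pass. On the deposited RPKM scale both were called, at 0.76 with ortho IL-2 (adjusted p = 0.00179) and 0.54 with WT IL-2 (adjusted p = 0.0186, edgeR). A difference between these values was not shown, since ortho IL-2 against WT IL-2 gave 0.16 (95% interval -0.19 to 0.51, adjusted p = 0.912, edgeR).

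The Id3 call with ortho IL-2 did not hold in every fit that left out 1 library, which also weakens the test. It was lost without ortho IL-2 replicate 1 (log2 fold change 0.44) or replicate 3 (0.39), and without no IL-2 replicate 1 (0.44), 2 (0.51) or 3 (0.49). Without no IL-2 replicate 2 or 3 the value was thus no smaller than with all libraries (0.48). Relative to the mean of their own group, reads of GC-rich genes were more frequent in ortho IL-2 replicate 3 and WT IL-2 replicate 1. The slopes were 0.15 and 0.20 log2 units per 10 points of GC, against -0.12 to 0.010 in the other 7 libraries. Taken within groups, these slopes do not show GC differences between groups. Id3, whose transcript has the highest GC content of the 8 at 55.6%, was highest in its group in these same libraries. With offsets for GC content the log2 fold change was 0.22 with ortho IL-2 (adjusted p = 0.102) and 0.12 with WT IL-2 (adjusted p = 0.351, edgeR), and neither was called. These offsets were fitted to each library's deviation from the mean of all 9 libraries. They therefore also take out any GC-linked difference between groups, whatever its source. With the share of reads outside the chosen transcripts as a covariate, the ortho IL-2 value was 0.26 (adjusted p = 0.674, edgeR). This covariate did not overlap between treated and control libraries.

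Within libraries, Id2 exceeded Id3 throughout. Per base of transcript it had 2.38, 2.93 and 1.99 times the reads of Id3 with ortho IL-2 and 2.12, 3.20 and 3.21 times with WT IL-2, against 1.32, 1.42 and 1.27 times without IL-2. Every treated library was above every control, by 1.80-fold on average with ortho IL-2 and 2.09-fold with WT IL-2 (exact permutation p = 0.1 for each, the smallest possible, and 0.15 adjusted over 9 tests). These ratios were not adjusted for GC content, which was 42.4% for Id2 and 55.6% for Id3. The lowest ratio of each treated group was that of ortho IL-2 replicate 3 and WT IL-2 replicate 1. The relatives Id1 and Id4 were too low to test.

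**Figure D2:**
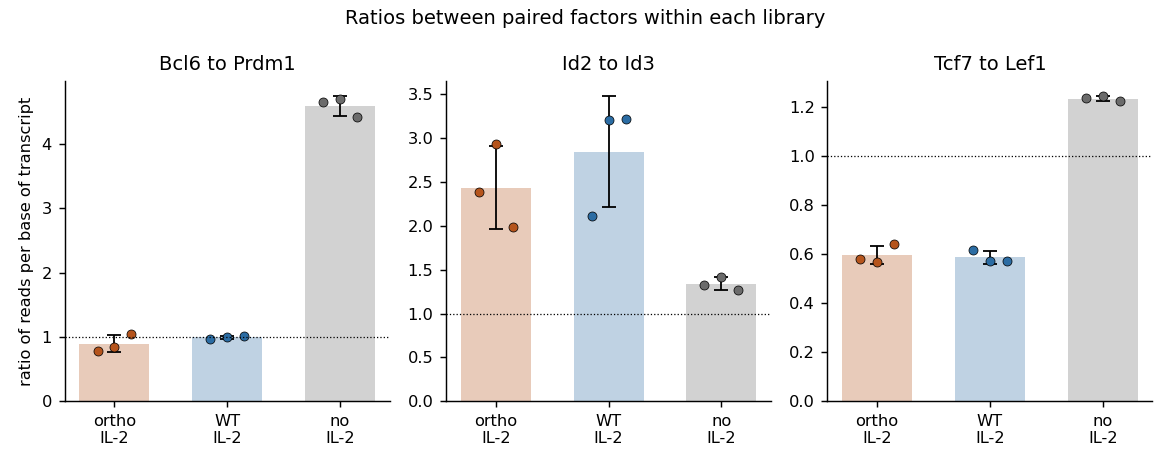
Ratios of reads per base of transcript within each library (points) for Bcl6 to Prdm1, Id2 to Id3 and Tcf7 to Lef1, with group means (bars) and SD (error bars, n = 3), from ortho IL-2 on the left to no IL-2 on the right; the dotted line marks equal levels. Tcf7 exceeded Lef1 in the 3 no IL-2 libraries and was below it in all 6 treated libraries.

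The E proteins that ID2 and ID3 bind behaved unlike each other. Tcf12, which encodes the E protein HEB, was called lower, at 39.7 ± 1.48 RPKM with ortho IL-2 and 41.6 ± 2.21 RPKM with WT IL-2, against 47.0 ± 0.508 RPKM without IL-2 (SD, n = 3 each; adjusted p = 0.0024 and 0.015, edgeR), but this direction turned on the deposited RPKM scale (log2 fold changes 0.031 and 0.038) and the WT IL-2 call was lost without no IL-2 replicate 3 (-0.17). Tcf4, at only 1.75 RPKM with ortho IL-2, 2.09 RPKM with WT IL-2 and 1.51 RPKM without IL-2, was called higher with WT IL-2 (log2 fold change 0.46, adjusted p = 0.00137) and had a value of 0.21 with ortho IL-2 (adjusted p = 0.0541, edgeR). Tcf3, which encodes E2A, was called in neither comparison (log2 fold changes 0.30 with ortho IL-2 and 0.24 with WT IL-2). With ortho IL-2 both genes passed in some fits that left out 1 library, Tcf4 without ortho IL-2 replicate 2 (0.25) or no IL-2 replicate 2 (0.27) and Tcf3 without replicate 1 of WT IL-2 (0.30) or replicate 2 of ortho IL-2 (0.39). In all, 1 of the 3 E protein genes was lower and 2 were not called with ortho IL-2, and 1 was higher, 1 lower and 1 not called with WT IL-2.

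Tcf7 had the highest level of the 8 without IL-2 and fell below Lef1, Id2 and Satb1 with either cytokine. It measured 43.2, 40.8 and 48.7 RPKM with ortho IL-2 and 46.5, 41.4 and 42.8 RPKM with WT IL-2, against 109, 112 and 111 RPKM without IL-2. The treated and control ranges were far apart. The fall was 2.50-fold with ortho IL-2 (log2 fold change -1.32, SE 0.07, adjusted p = 2.61e-07) and 2.54-fold with WT IL-2 (-1.34, SE 0.07, adjusted p = 2.27e-07, edgeR). The highest values in the 2 treated groups were those of ortho IL-2 replicate 3 and WT IL-2 replicate 1. Satb1, at a similar GC content (52.6% against 52.3% for Tcf7), was lowest in its group in these same libraries. With GC offsets the Tcf7 log2 fold change was -1.43 in each comparison.

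Lef1, the closest relative of Tcf7 in T cells, changed much less. Its level was 74.4, 71.6 and 76.0 RPKM with ortho IL-2 and 75.4, 72.5 and 75.0 RPKM with WT IL-2, against 88.0, 89.99 and 91.1 RPKM without IL-2. The ranges did not overlap, and Lef1 was called 1.21-fold lower in both comparisons (log2 fold changes -0.28 and -0.27, SE 0.04 each, adjusted p = 0.000338 and 0.000418, edgeR). Neither call was kept on the deposited RPKM scale, where the values were 0.00059 with ortho IL-2 and -0.056 with WT IL-2. With the covariate, which did not overlap between treated and control libraries, the ortho IL-2 call was lost at a value of similar size (-0.30, adjusted p = 0.0682, edgeR). The exons of Lef1 overlap an antisense gene, Gm43352.

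The unequal change of the 2 relatives was seen within libraries, where scaling has no part. Tcf7 had 0.581, 0.570 and 0.640 times the reads of Lef1 per base with ortho IL-2 and 0.617, 0.571 and 0.571 times with WT IL-2, against 1.24, 1.24 and 1.22 times without IL-2. The ratio crossed 1 between treated and control libraries, being 2.07-fold lower with ortho IL-2 and 2.11-fold lower with WT IL-2 (exact permutation p = 0.1 for each, the smallest possible, and 0.15 adjusted over 9 tests). Tcf7l2 was too low to test, and Tcf7l1, near 4 RPKM, was not called.

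Satb1 took a middle place. It lay at 52.3, 52.0 and 49.96 RPKM with ortho IL-2 and at 49.6, 53.6 and 56.7 RPKM with WT IL-2, against 89.1, 85.4 and 85.3 RPKM without IL-2. No treated library reached a control library. It fell 1.69-fold with ortho IL-2 (log2 fold change -0.75, SE 0.05, adjusted p = 2.14e-06) and 1.63-fold with WT IL-2 (-0.70, SE 0.05, adjusted p = 3.62e-06, edgeR). Its exons overlap Gm36931 on the same strand and Gm6934 on the other, whose reads could not be told apart.

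Bach2, a repressor of effector genes, shifted least among the called genes. Its level was 37.2, 35.7 and 33.7 RPKM with ortho IL-2 and 35.5, 36.0 and 37.1 RPKM with WT IL-2, against 40.4, 38.4 and 39.9 RPKM without IL-2. The treated libraries lay below every control library by a narrow margin. Bach2 was called 1.11-fold lower with ortho IL-2 (log2 fold change -0.15, SE 0.05, adjusted p = 0.0209) and 1.09-fold lower with WT IL-2 (-0.13, SE 0.05, adjusted p = 0.0481, edgeR), but on the deposited RPKM scale the direction turned, to 0.12 and 0.087. Both calls were also lost with no filter on low values (-0.083 and -0.073) and with the covariate (0.0080 and -0.00059), and the WT IL-2 call with upper-quartile scaling (-0.12) and with only the compared groups in the fit (-0.13). The exons of Bach2 overlap an antisense gene, Bach2os.

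These Bach2 calls did not hold in every fit that left out 1 library. With ortho IL-2 the call was lost without ortho IL-2 replicate 3 (-0.12) or no IL-2 replicates 1 (-0.14) or 3 (-0.15), and with WT IL-2 it was lost in 7 of the 9 fits that left out 1 library (log2 fold changes -0.11 to -0.15). Among these were the fits without ortho IL-2 replicate 1 or 2, which are not in that comparison. There the value stayed at -0.13 (adjusted p = 0.0524 and 0.0631, edgeR). Bach1, which encodes a widely expressed relative, was called lower by more, at 10.7 ± 0.585 and 11.0 ± 0.821 RPKM with ortho and WT IL-2, against 15.3 ± 0.544 RPKM without IL-2 (SD, n = 3 each; log2 fold changes -0.52 and -0.48, adjusted p = 0.000113 and 0.00022, edgeR). Bcl6b, a relative of Bcl6, was too low to test. Prdm2, a relative of Prdm1, was not called in either comparison (log2 fold changes 0.061 with ortho IL-2 and 0.066 with WT IL-2).

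**Figure D3:**
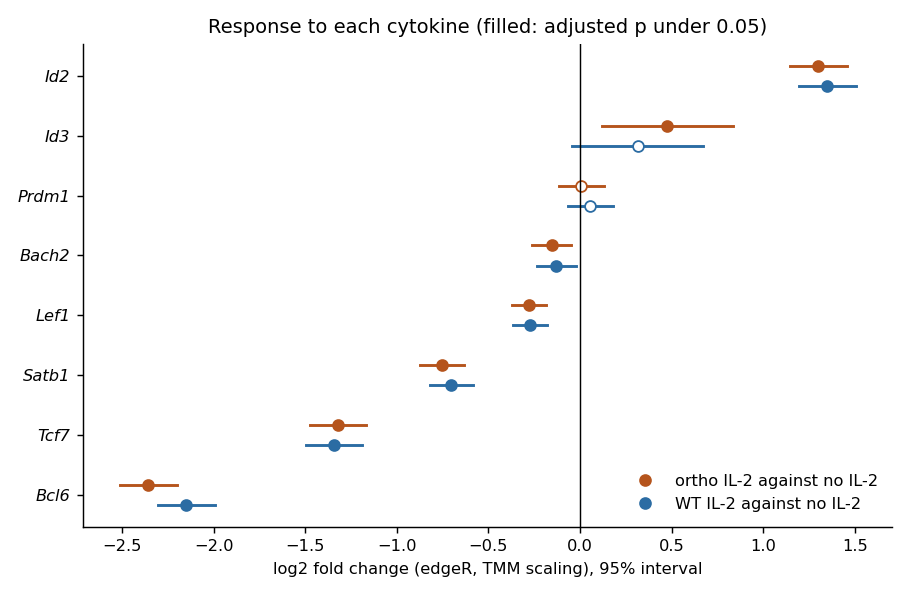
Log2 fold changes (x axis, TMM scaling) with 95% intervals of the 8 genes for ortho IL-2 against no IL-2 (upper of each pair) and WT IL-2 against no IL-2 (lower of each pair); filled points passed the edgeR test at an adjusted p under 0.05. Bcl6, Tcf7 and Satb1 were lower by 0.70 or more and Id2 higher by 1.30 or more on the log2 scale; Lef1 and Bach2 lay between -0.28 and -0.13, and their calls were lost or turned on the deposited RPKM scale.

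Between ortho and WT IL-2, 0 of the 8 genes passed the edgeR test, and 0 (0%) of the 10702 genes did. The libraries of these groups overlapped for all 8 genes, where 4.67% of all genes did not overlap. At an unadjusted p under 0.05, edgeR gave 152 genes (1.42% of those tested), DESeq2 114 and limma on log2(RPKM + 0.5) 117, and after adjustment DESeq2 and limma called none either. Of the 8, Bcl6 was the only one among the 152. It was 1.15-fold lower with ortho IL-2 than with WT IL-2 (log2 fold change -0.21, 95% interval -0.36 to -0.05, adjusted p = 0.912 by edgeR), with ranges that touch at 7.01 RPKM. For the other genes the 95% intervals of the log2 fold change ran from -0.17 to 0.07 for Prdm1, -0.13 to 0.18 for Tcf7, -0.10 to 0.09 for Lef1 and -0.20 to 0.10 for Id2. They ran from -0.19 to 0.51 for Id3, -0.17 to 0.07 for Satb1 and -0.13 to 0.08 for Bach2. Apart from Bcl6 and Id3, these intervals stayed between -0.20 and 0.18, at doses that were not matched.

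In order of level per length, cells given ortho IL-2 had Lef1 first, then Id2 and Satb1, Tcf7, Bach2, Id3, and last Prdm1 and Bcl6, and cells given WT IL-2 had the same order. Without IL-2 the order was Tcf7, Lef1, Satb1, Bach2, Bcl6, Id2, Id3, Prdm1. Neighbours with overlapping ranges over the 3 libraries were Id2 with Satb1 and Prdm1 with Bcl6 in each treated group, and Lef1 with Satb1 without IL-2; the ranges of all other neighbours stood apart. Against all genes tested, Bcl6 stood above 27.7% with ortho IL-2 and 31.8% with WT IL-2, and above 76.1% without IL-2. Id2 stood above 86.3% with ortho IL-2 and 86.9% with WT IL-2, and above 64.5% without IL-2. Tcf7 stood above 83.3% with ortho IL-2 and 83.0% with WT IL-2, and above 95.02% without IL-2.

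The genes that accompany these factors were taken from lists of follicular and central memory genes, effector Treg genes, and corepressors. Over all genes, 28.6% were called higher and 27.4% lower after ortho IL-2, and 24.9% higher and 23.0% lower after WT IL-2. Of the 18 follicular and central memory genes tested (of 24), 15 were lower, 2 higher and 1 not called in each comparison, with a median log2 fold change of -0.65 with ortho IL-2 and -0.61 with WT IL-2. On the deposited RPKM scale 11 were lower and 3 higher with ortho IL-2, and 12 lower and 2 higher with WT IL-2, where 8.84% of all genes were lower and 53.3% higher with ortho IL-2 and 8.36% lower and 43.3% higher with WT IL-2. Il7r, the IL-7 receptor of resting T cells, averaged 64.1 ± 4.04 and 67.4 ± 9.36 RPKM with ortho and WT IL-2, against 244 ± 3.28 RPKM without IL-2 (SD, n = 3 each; adjusted p = 1.64e-07 and 1.96e-07, edgeR).

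Pdcd1, which encodes the inhibitory receptor PD-1, fell 2.23-fold and 2.31-fold with ortho and WT IL-2, Il6ra, the IL-6 receptor, 1.85-fold and 1.78-fold, and Foxo1, a quiescence factor, 1.79-fold and 1.74-fold. Icos, a costimulatory receptor of both follicular and effector cells, and P2rx7, an ATP receptor, were named after their values were seen: Icos was 1.32-fold and 1.35-fold higher and P2rx7 1.30-fold and 1.31-fold higher with ortho and WT IL-2. Cxcr5 and Il21, the defining receptor and cytokine of follicular helper cells, were too low to test: Cxcr5 reached at most 0.700 RPKM and Il21 at most 4 reads in any library.

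Of the 21 effector Treg genes tested (of 25), 10 were higher, 7 lower and 4 not called with ortho IL-2, and 9 higher, 6 lower and 6 not called with WT IL-2. Gzmb, the cytotoxic protease granzyme B, reached 50.2 ± 2.79 and 48.9 ± 3.16 RPKM with ortho and WT IL-2, against 5.82 ± 0.315 RPKM without IL-2 (SD, n = 3 each; 8.62-fold and 8.40-fold higher, adjusted p = 3.00e-09 and 2.80e-09, edgeR). Tnfrsf9, the costimulatory receptor 4-1BB, was 3.56-fold and 3.51-fold higher and Xbp1, a factor of secretory cells, 3.88-fold and 3.91-fold higher with ortho and WT IL-2. Itgae, the CD103 integrin chain of tissue Tregs, fell 1.77-fold and 1.76-fold with ortho and WT IL-2. The median log2 fold change of the list was 0.17 with ortho IL-2 and 0.18 with WT IL-2.

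Of the 23 corepressors and partners tested (of 25), 7 were higher, 2 lower and 14 not called with ortho IL-2, and 5 higher, 5 lower and 13 not called with WT IL-2. These splits depended on the processing: with GC offsets 11 were lower with ortho IL-2 and 9 with WT IL-2 (7 higher in each), where 33.1% of all genes were lower with ortho IL-2 and 31.3% with WT IL-2, and on the deposited RPKM scale 17 were higher with ortho IL-2 and 13 with WT IL-2, beside the 53.3% and 43.3% of all genes given above. Groucho corepressors, which bind TCF1 and LEF1, moved in opposite directions, Tle4 falling 1.53-fold and 1.55-fold and Tle3 rising 1.56-fold and 1.55-fold with ortho and WT IL-2 (adjusted p = 1.20e-05, 9.69e-06, 7.28e-05 and 9.09e-05, edgeR). Prmt5, an arginine methyltransferase, rose 1.41-fold and 1.37-fold, and Hdac1, a histone deacetylase, 1.29-fold and 1.25-fold with ortho and WT IL-2. All 9 listed IL-2 and STAT5 target genes were higher in both comparisons, in the order of the ortho IL-2 values from Pim1 (1.85-fold with ortho IL-2 and 1.74-fold with WT IL-2) through Socs2, Il2ra, Socs3, Bcl2, Osm, Cish and Lta to the feedback inhibitor Socs1 (22.3-fold with ortho IL-2 and 20.6-fold with WT IL-2). This list was chosen with earlier results of these data known, so the count is a description only. Over all genes, 28.6% were called higher with ortho IL-2 and 24.9% with WT IL-2.

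**Figure D4:**
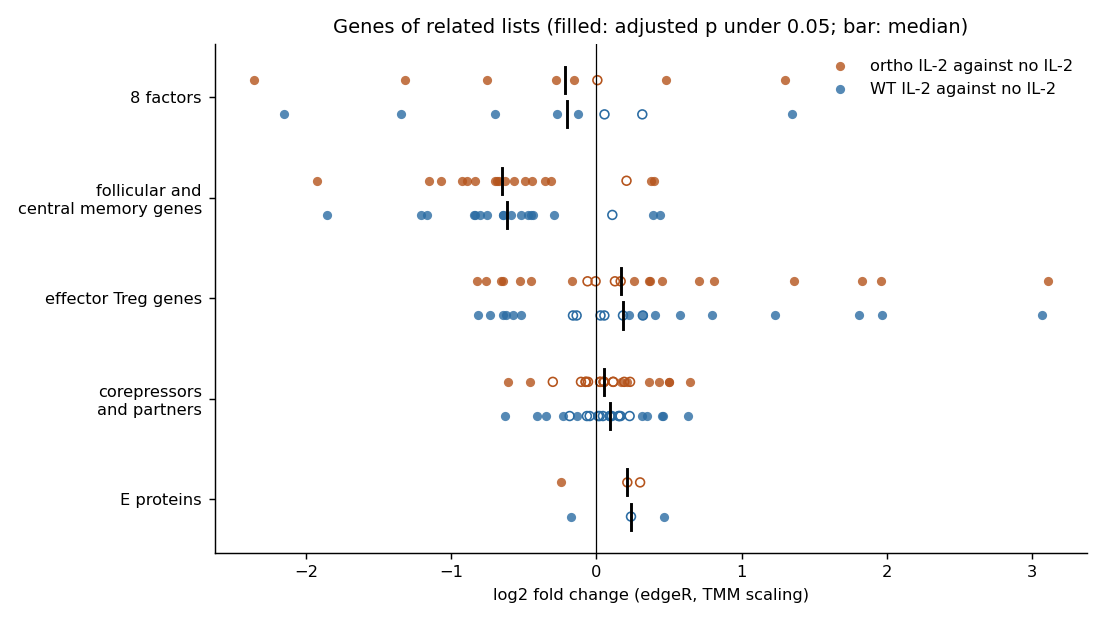
Log2 fold changes (x axis, TMM scaling) of the 8 factors and of the tested genes in the related lists, for ortho IL-2 against no IL-2 (upper of each pair of rows) and WT IL-2 against no IL-2 (lower); filled points passed the edgeR test at an adjusted p under 0.05 and bars mark medians. Follicular and central memory genes lay mostly below 0, with medians of -0.65 and -0.61, and effector Treg genes spread to both sides.

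For each gene, the tested genes with the most similar profile were those with the smallest root mean square difference of centred log2 levels over the 9 libraries. For Bcl6 these were Tdrp (0.16 log2 units) and Il7r (0.21), beside a spread of 1.07 for Bcl6 itself about its own mean. For Tcf7 they were Actn1 (0.044) and Heatr5a (0.081), for Id2 Tlr2 (0.061) and Rasgrp1 (0.065), and for Satb1 Add3 (0.032) and Zeb1 (0.036). For Lef1 they were Klf13 and Ddi2 (0.021 and 0.022), and for Id3 Tesk1 and Mrpl38 (0.049 and 0.058). Prdm1, with a spread of only 0.049 of its own, was nearest Usp24 and Ipo8 (0.020 each), and Bach2, with 0.080, nearest Herc2 and 2700050L05Rik (0.020 and 0.024). These values describe the same 9 libraries in which the genes were compared and were not tested.

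Bcl6, Tcf7, Satb1 and Id2 kept their direction and their call under each of 24 alternatives in both comparisons with no IL-2, which covered scaling, filters, tools, GC offsets, a covariate and the omission of libraries. Id3, Prdm1, Lef1 and Bach2 did not.

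**Figure D5:**
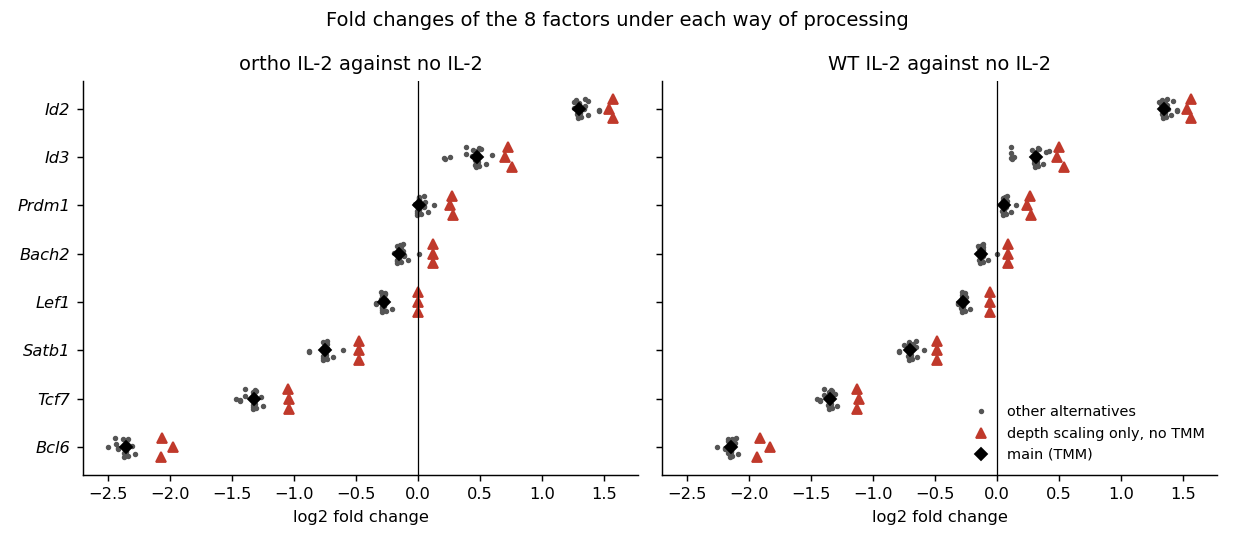
Log2 fold changes (x axis) of the 8 genes under each way of processing, for ortho IL-2 against no IL-2 (left) and WT IL-2 against no IL-2 (right); diamonds are the reported TMM-scaled values, triangles the fits with depth scaling only and dots the other alternatives. Triangles lie to the right of the diamonds throughout. Scaling by the RPKM divisor moved each gene by about the shift of the median gene (0.29 with ortho IL-2 and 0.22 with WT IL-2). The limma fits moved Bcl6 further, to -1.97 with ortho IL-2 and -1.83 with WT IL-2 at a pseudocount of 0.5. They moved Id3 by less. Bach2 crossed 0 and Lef1 reached it, while Bcl6, Tcf7, Satb1 and Id2 stayed on their side.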

How the data were processed

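RNA of 9 libraries, 3 in each group, was prepared with an mRNA kit and sequenced on an Illumina instrument, per the labels. Per the file headers, the tables deposited by the authors hold raw read counts and RPKM values for 31682 RefSeq transcripts. The submitters' processing notes name the mm10 build and the tools edgeR, bedtools 2.25.0, SAMtools 0.1.8, TopHat2 and Bowtie2. What each tool did, the counting program and the strand setting are not given in the sources used. The growth protocol label describes another assay, so the culture rests on the treatment protocol label.

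Each symbol was represented by its transcript with the largest read sum. For 2 of the 8 genes the files list several nested transcripts (Lef1 3 and Satb1 4). Genes that reached an RPKM of 1 in 3 or more libraries were tested on counts with TMM scaling and the quasi-likelihood test of edgeR 4.0.16 (R 4.3.3) over all 9 libraries. The test is two-sided, and p-values were adjusted by Benjamini and Hochberg's method over 10702 genes, with a threshold of 0.05. The test was also run on simulated counts. Few genes were changed there, up and down alike and in a single group, unlike in these data. That run therefore does not check the scaling. Levels are TMM-scaled RPKM, recomputed from the counts. DESeq2 1.42.0 and limma 3.58.1 (pseudocounts 0.5 and 0.1, on a log2 scale that understates changes of low genes) served as alternatives, with other scalings, filters, GC offsets, a replicate block, a covariate and the omission of each library. Omitting ortho IL-2 replicate 3 and WT IL-2 replicate 1 together was added after seeing the data. Ratios were compared by two-sided exact permutation tests. Sequences are RefSeq's, matched by symbol for all 8 genes. The 8 genes and the lists were chosen with earlier results of these data known. The rule for named genes took the 8, the 2 genes most like each, the members of lists of 3 to 9 genes and the 4 with the smallest p with WT IL-2 in longer lists; some of these are not reported here. Icos, P2rx7, Cxcr5, Il21, Ms4a1, Tnfrsf17 and Klra8 were named in addition, after their values were seen.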

Additional observations from a re-analysis of the deposited data

How the results depend on the processing

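The ratios to no IL-2 kept their direction. These ratios were rerun only with 1 library left out or with the longest transcript, which was the one already used. They stayed within 1.5 times. The total of the 8 genes called in either direction also stayed within 1.5 times under the alternatives run. The exception was the fit with the share of reads outside the chosen transcripts as a covariate. That share did not overlap between treated and control libraries. The fit called 4 of the 8 genes with ortho IL-2, and of all genes 1568 with ortho IL-2 and 2134 with WT IL-2. The split of the 8 by direction did depend on scaling. TMM gave 2 higher and 5 lower calls for ortho IL-2, and 1 and 5 for WT IL-2. Scaling by the RPKM divisor, and limma at either pseudocount, gave 3 of each in both comparisons. Prdm1, Id2 and Id3 were then the higher calls, and Bcl6, Tcf7 and Satb1 the lower calls. Leaving out 1 library gave 5 to 7 and 5 to 6 of the 8 genes with ortho and WT IL-2, and 4746 to 6632 and 4068 to 5342 of all genes. Labels do not pair the replicate numbers, and same-numbered libraries correlated at -0.62 to 0.40 after removing group means. With a replicate block 7 and 5 of the 8 genes were called with ortho and WT IL-2, beside 5642 and 4799 of all genes. Bach2 with WT IL-2 was then lost (log2 fold change -0.13). On the deposited RPKM scale 85.8% and 83.8% of all called genes were higher with ortho and WT IL-2, against 51.1% and 51.9% with TMM. The following log2 fold changes turned direction, and the cause was not tested. Scaled by the RPKM divisor, then with limma at pseudocounts 0.5 and 0.1, values with ortho IL-2 were 0.12, 0.12 and 0.12 for Bach2, 0.031 each for Tcf12, 0.16, 0.11 and 0.13 for Tcf7l1, and 0.00059 by the divisor for Lef1. With WT IL-2 they were 0.087, 0.085 and 0.086 for Bach2, 0.038 each for Tcf12 and 0.16, 0.13 and 0.15 for Tcf7l1. Between ortho and WT IL-2 they were 0.010, 0.010 and 0.011 for Prdm1, 0.057, 0.054 and 0.054 for Lef1, 0.0082, 0.0097 and 0.0098 for Id2, 0.011, 0.010 and 0.010 for Satb1, and 0.034, 0.034 and 0.034 for Bach2. GC offsets, without and with a replicate block, gave Tcf3 -0.084 and -0.085 with ortho IL-2 and -0.028 and -0.029 with WT IL-2, and between the cytokines Tcf7 -0.0058 and -0.0086, Id2 0.0088 and 0.010, and Bach2 0.0015 and 0.0010. The covariate gave Bach2 0.0080 with ortho IL-2, and between the cytokines Tcf7 -0.0090 and Bach2 0.0086. Prdm1 with ortho IL-2 was -0.0050 with RLE size factors, -0.0076 with DESeq2 and -0.0071 with an RPKM minimum of 5. Lef1 between the cytokines was 0.00011 with upper-quartile scaling and 0.010 with no filter, and Tcf7 was -0.0043 without ortho IL-2 replicate 3 and WT IL-2 replicate 1. Leaving out 1 library gave -0.027 to 0.053 for Prdm1 with ortho IL-2, -0.15 to 0.0039 for Tcf7l1 with WT IL-2, and between the cytokines -0.053 to 0.076 for Tcf7, -0.025 to 0.017 for Lef1, -0.060 to 0.013 for Bach2 and -0.027 to 0.062 for the log2 ratio of Tcf7 to Lef1. At 3 libraries per group the ratios cannot reach an exact p under 0.1, and the fewest reads of the 8 genes were 373 (Id3) and 442 (Bcl6) in a treated library and 253 (Id3) and 429 (Id2) in a control library.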
